A study of Rattus norvegicus with 9 samples.

Results

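Oncofetal genes are active in the embryo, are shut down in most adult tissues and reappear in many tumours. The genes described here are 10 such genes, listed by symbol with earlier results of these arrays known: the RNA-binding proteins Igf2bp1, Igf2bp2, Igf2bp3 and Lin28b, the chromatin proteins Hmga1 and Hmga2, the transcription factors Sall4 and Plag1, the surface proteoglycan Gpc3 and the secreted growth factor Mdk. A row of the array table was assigned to each through the platform annotation, and 6 of the 10 had 1, namely Igf2bp1, Gpc3, Mdk, Hmga1, Hmga2 and Plag1. These 6 are set against all 14497 genes measured. Igf2bp2, Igf2bp3, Lin28b and Sall4 had no row by symbol, gene identifier or transcript accession and were not analysed here.

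Liver cells of F344 rats were compared in 3 groups of 3 Affymetrix Rat ST 1.0 arrays, which the labels describe as biological replicates. The OC.2+ and the OC.2- fetal cells came from livers of embryonic day 19, were released with collagenase and were purified with antibodies to leucine aminopeptidase (LAP) and to OC.2, a ductal marker. Titles and cell type labels call both fractions LAP+ hepatocytes. The purification text, a double positive selection, is identical for both, and the short notes give LAP-OC2+ for one fraction, so the fractions are told apart by title and cell type label only. Adult hepatocytes came from rats 5 to 6 weeks old after collagenase perfusion, with no antibody selection recorded, so age and isolation differ together and cannot be told apart. No label gives a treatment, an engineered allele or pooling of animals.

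The array medians were 6.45 to 6.47 (log2 intensity) for OC.2+ fetal cells, 6.43 to 6.49 for OC.2- fetal cells and 6.31 to 6.34 for adult hepatocytes. The 10 hepatocyte markers examined were present in all groups, with a summed intensity of 34321 to 38093 in OC.2+ fetal cells, 80782 to 86917 in OC.2- fetal cells and 87610 to 94684 in adult hepatocytes. Granulocyte markers summed to 14575 to 16120 in OC.2+ fetal cells, against 738.2 to 827.5 in OC.2- fetal cells and 634.6 to 697.6 in adult hepatocytes. Erythroid markers summed to 29425 to 29878 in OC.2+ fetal cells, against 11298 to 13947 in the OC.2- fraction and 655.2 to 711.6 in adult hepatocytes. Granulocyte and erythroid markers were thus brightest in the OC.2+ fraction. Macrophage markers were not, with sums of 1622 to 1990 in OC.2+ and 2136 to 2797 in OC.2- fetal cells. The 6 ductal markers measured had summed intensities of 450.5 to 458.7 in OC.2+ fetal cells, 457.1 to 633.7 in the OC.2- fraction and 385.8 to 422.8 in adult hepatocytes, and at these low levels they give no check of the ductal label of OC.2. Each array measures RNA of a mixture, in which fewer cells of a type and less RNA per cell cannot be told apart.

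As background, Igf2bp1 belongs to a family of KH-domain proteins that bind mRNAs such as Igf2, Actb and Myc and set their localisation, stability and translation. Lin28b and its relative Lin28a block the maturation of let-7 microRNAs, which repress growth genes. Hmga1 and Hmga2 bind AT-rich DNA through AT-hooks and bend it, Plag1 is a zinc-finger factor that activates Igf2, and Sall4 recruits the NuRD deacetylase complex. Gpc3 is a heparan sulphate proteoglycan anchored to the outer side of the cell membrane, and in human pathology it marks hepatocellular carcinoma. Midkine, the product of Mdk, is a heparin-binding growth factor.

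RefSeq promoters (build GRCr8, 250 bases before to 50 after the annotated start) were found for 3 of the 6 measured genes, Gpc3, Hmga1 and Hmga2. The first 2 are shown because these genes differed in opposite directions between the fetal fractions. Gpc3 lies at chrX:137157549-137157848 on the minus strand and Hmga1 at chr20:5613258-5613557 on the plus strand, and capitals mark GC boxes (GGGCGG) and CCAAT boxes (CCAAT), each on either strand.
Gpc3: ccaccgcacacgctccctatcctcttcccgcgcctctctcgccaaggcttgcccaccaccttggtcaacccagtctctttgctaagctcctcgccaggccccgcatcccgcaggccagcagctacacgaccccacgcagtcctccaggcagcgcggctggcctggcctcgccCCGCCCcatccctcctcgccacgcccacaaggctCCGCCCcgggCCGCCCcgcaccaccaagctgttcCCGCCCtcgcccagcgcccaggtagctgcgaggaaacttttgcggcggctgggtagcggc
Hmga1: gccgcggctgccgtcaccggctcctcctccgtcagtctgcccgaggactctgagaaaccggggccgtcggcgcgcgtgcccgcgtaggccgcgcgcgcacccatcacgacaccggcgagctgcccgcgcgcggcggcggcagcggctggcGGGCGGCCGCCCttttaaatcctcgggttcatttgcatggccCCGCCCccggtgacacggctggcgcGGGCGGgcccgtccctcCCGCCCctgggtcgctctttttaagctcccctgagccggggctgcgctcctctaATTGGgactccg
The Gpc3 window held 4 GC boxes and no CCAAT box, and the Hmga1 window 5 GC boxes, a pair of them adjoining, and 1 CCAAT box. GC boxes were present in 33.1% and CCAAT boxes in 37.5% of all 33469 rat promoter windows. Neither window held a TATA box (TATAAA, in 14.2% of windows) or an E-box (CACGTG, in 6.42%). GC content was 71% for Gpc3 and 74% for Hmga1, with 27 and 44 CpG dinucleotides, against medians of 51.67% and 7 over all windows. The Hmga2 window, at chr7:57880292-57880591 on the minus strand, had 57.33% GC and none of these 4 motifs. Such matches describe the letters of these windows only.

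The first question was how the fetal fractions differed from each other. Gpc3 was far lower in OC.2+ fetal cells than in the OC.2- fraction, Mdk and Igf2bp1 were moderately lower, and Hmga1 was higher. Hmga2 and Plag1 did not pass the test. In all, 1 of the 6 genes was called higher and 3 were called lower at limma adjusted p under 0.05, against 20.3% of all genes called higher and 18.2% called lower. The 4 called genes were also those whose OC.2+ and OC.2- arrays did not overlap, which held for 46.5% of all genes. The median log2 difference was -0.21 over the 6 genes and 0.04 over all genes.

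The next comparisons set each fetal fraction against adult hepatocytes, and since they share the adult arrays they are not independent of each other. All 6 measured genes were higher in OC.2- fetal cells than in adult hepatocytes, against 23.7% of all genes called higher and 20.9% called lower. In OC.2+ fetal cells, 5 of the 6 were higher than in adult hepatocytes and Mdk did not pass the test, against 32.0% of all genes called higher and 23.4% called lower. The arrays did not overlap for all 6 genes in OC.2- fetal cells against adult hepatocytes (51.4% of all genes) and for 5 of the 6 in OC.2+ fetal cells against adult hepatocytes (62.2% of all genes). The median log2 difference of the 6 genes was 0.73 for OC.2- fetal cells and 0.90 for OC.2+ fetal cells, against 0.07 and 0.11 over all genes. The genes were picked as fetal genes with earlier results of these arrays known, so this direction is no independent evidence. The share of higher genes among those called depended on the scaling. For OC.2- fetal cells against adult hepatocytes it was 53.1% on the deposited values, 34.6% after median centring and 42.5% after cyclic loess. For OC.2+ fetal cells against adult hepatocytes it was 57.8% on the deposited values, 42.5% after median centring and 42.2% after cyclic loess.

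**Figure D1:**
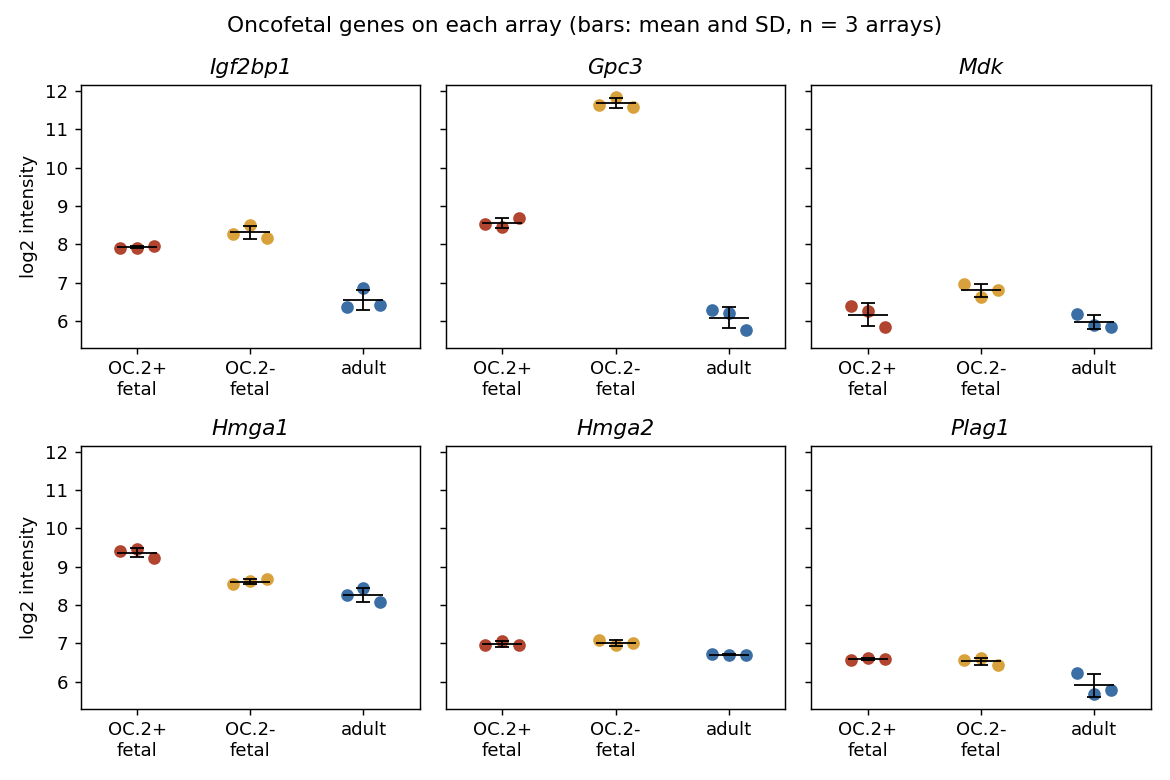
Log2 intensity of the 6 measured oncofetal genes on each of 9 arrays, by group, with the mean and SD of 3 arrays as black bars; levels may be compared between groups within a panel, not between genes. Gpc3 separates the 3 groups most widely, with OC.2- fetal cells at 11.60 to 11.85 and adult hepatocytes at 5.77 to 6.27.

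**Figure D2:**
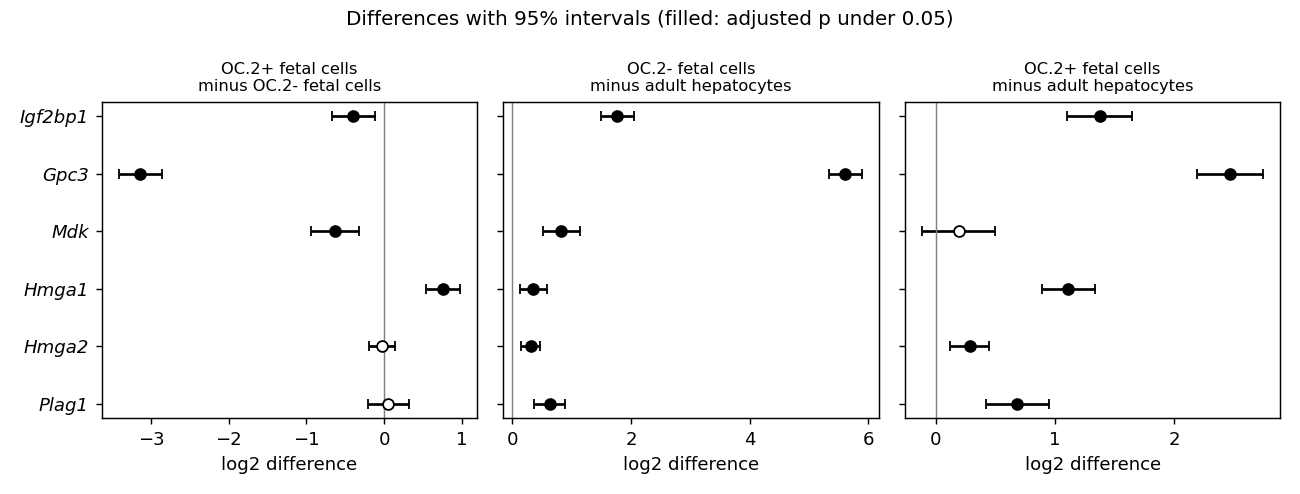
Log2 difference of each gene (horizontal axis, first group minus second) with its 95% interval in the 3 comparisons; filled points have a limma adjusted p under 0.05, and the horizontal scales differ between panels. Every point lies right of zero in both comparisons with adult hepatocytes, while Gpc3, Mdk and Igf2bp1 lie left of it and Hmga1 right of it in OC.2+ against OC.2- fetal cells.

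Igf2bp1 (probe set 10746556), the only RNA-binding protein of the list with a row, was raised in both fetal fractions. Its log2 intensity was 7.91, 7.90 and 7.95 on the OC.2+ arrays, 8.28, 8.50 and 8.17 on the OC.2- arrays and 6.37, 6.85 and 6.41 on the adult arrays. No array of one group overlapped with another group, with levels highest in the OC.2- fraction, next in the OC.2+ fraction and lowest in adult hepatocytes. Igf2bp1 was 3.42-fold (95% interval 2.83 to 4.12) higher in OC.2- fetal cells than in adult hepatocytes (adjusted p = 1.12e-07). In OC.2+ fetal cells it was 2.60-fold (95% interval 2.15 to 3.14) higher than in adult hepatocytes (adjusted p = 6.29e-07). Only 184 genes had a higher log2 difference in OC.2- fetal cells against adult hepatocytes. In OC.2+ fetal cells 699 genes did. Adult Igf2bp1 was below the level that 95% of olfactory receptor genes, taken as not expected in liver cells, do not pass, so these folds and ranks may be understated. Between the fractions it was 1.32-fold (95% interval 1.09 to 1.59) lower in OC.2+ fetal cells (adjusted p = 0.0231). This last call ended when any of the 3 OC.2+ arrays was left out (adjusted p = 0.0663, 0.0674 and 0.0545 without replicates 1, 2 and 3) and without OC.2- replicate 2 (adjusted p = 0.105).

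The 13 measured mRNAs known as clients of IGF2BP proteins are known mostly from human and mouse work. Against adult hepatocytes 7 were higher and 3 lower in OC.2- fetal cells, and 8 were higher and 2 lower in OC.2+ fetal cells. Of all genes, 23.7% were called higher and 20.9% lower in OC.2- fetal cells, and 32.0% and 23.4% in OC.2+ fetal cells. H19, an imprinted non-coding RNA, and Igf2, the fetal growth factor after which the family is named, had the highest log2 differences in both comparisons, at 7.27 and 6.45 in OC.2- fetal cells and at 5.68 and 3.75 in OC.2+ fetal cells. The cyclin gene Ccnd3 and the adhesion receptor gene Cd44 were also higher in both fractions, with log2 differences of 1.11 and 0.56 in OC.2- fetal cells and of 2.27 and 1.81 in OC.2+ fetal cells. Cyclin D1 (Ccnd1) was lower in both, at -0.37 in OC.2- and -1.85 in OC.2+ fetal cells, the first of which did not pass after quantile normalization (-0.15, adjusted p = 0.26). That scaling left 1 client and 1 let-7 target lower in OC.2- fetal cells. In OC.2+ against OC.2- fetal cells 5 clients were higher and 4 lower, against 20.3% and 18.2% of all genes. Igf2 was at -2.70 and H19 at -1.59, like Igf2bp1 in sign, and Cd44 at 1.25 and Ccnd3 at 1.16, unlike it. The shares of all genes given here also apply to the counts of the lists below. Igf2 and H19 are counted again among the PLAG1 targets and the other oncofetal genes, so those lists are not separate support. Of 9 proteins known from IGF2BP ribonucleoprotein particles, 7 were higher and none lower in OC.2+ fetal cells than in the OC.2- fraction (median log2 difference 0.54). They included Dhx9, an RNA helicase, at 0.68, Syncrip, an RNA-binding protein of the hnRNP family, at 0.68, and Khdrbs1, an RNA-binding protein that Src kinases phosphorylate, at 0.66. Against adult hepatocytes 5 of the 9 were higher in OC.2- fetal cells and 8 of the 9 in OC.2+ fetal cells, with none lower. Syncrip in OC.2- fetal cells did not pass after median centring (0.22, adjusted p = 0.122) or cyclic loess (0.23, adjusted p = 0.0625), nor did Khdrbs1 after median centring (0.18, adjusted p = 0.174), which left 3 of the 9 called higher there.

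Lin28a, the relative of Lin28b that the array measures, did not pass the test in any comparison. Its log2 difference was -0.17 ± 0.10 (SE) in OC.2+ against OC.2- fetal cells (adjusted p = 0.21), 0.14 ± 0.10 in OC.2- fetal cells against adult hepatocytes (adjusted p = 0.26) and -0.03 ± 0.10 in OC.2+ fetal cells against adult hepatocytes (adjusted p = 0.807). Its group means of 5.86, 6.03 and 5.89 lay below the array medians. Of the 11 measured genes of let-7 processing, 4 were higher and 1 lower in OC.2+ fetal cells than in the OC.2- fraction. Of all genes, 20.3% were called higher and 18.2% lower there. Xpo5, which exports precursor microRNAs from the nucleus, was at 0.65, and Drosha, the nuclear nuclease of microRNA maturation, at 0.53. Tut4, a uridylyltransferase that LIN28 proteins recruit to precursor let-7, was lower, at -1.01. In OC.2- fetal cells against adult hepatocytes 3 of the 11 were higher and 1 was lower, against 23.7% and 20.9% of all genes. In OC.2+ fetal cells against adult hepatocytes 5 were higher and 2 lower, against 32.0% and 23.4% of all genes. After median centring the counts in OC.2- fetal cells turned to 1 higher and 3 lower. Those in OC.2+ fetal cells turned to 4 higher and 3 lower after median centring and after cyclic loess. Whether this list differs from all genes was not tested. Mature let-7 was not measured here.

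Of 17 measured mRNAs known as let-7 targets, mostly from human and mouse cells, 9 were higher and 2 lower in OC.2- fetal cells than in adult hepatocytes, with a median log2 difference of 0.45. In OC.2+ fetal cells 11 were higher and 3 lower than in adult hepatocytes, with a median of 0.72. Ccnd2, a cyclin, was at 1.82 in OC.2- fetal cells and 3.11 in OC.2+ fetal cells against adult hepatocytes. Thbs1, a secreted matrix protein, was at 1.31 in OC.2- and 2.78 in OC.2+ fetal cells, and Cdc25a, a phosphatase that drives the cell cycle, at 0.96 in OC.2- and 1.99 in OC.2+ fetal cells. The insulin receptor Insr was lower in both, at -0.54 in OC.2- and -1.71 in OC.2+ fetal cells. Between the fractions 8 were higher and 3 lower in OC.2+ fetal cells, with the cell cycle kinase Cdk6 highest at 2.07 and Ccnd1 lowest at -1.48.

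Gpc3 (probe set 10939764) varied more than any other of the 6 genes. Its log2 intensity was 8.53, 8.44 and 8.69 on the OC.2+ arrays, 11.64, 11.85 and 11.60 on the OC.2- arrays and 6.27, 6.21 and 5.77 on the adult arrays. The 3 groups were fully separated, and the adult arrays lay below their array medians. Gpc3 was 48.8-fold (95% interval 40.3 to 59.3) higher in OC.2- fetal cells than in adult hepatocytes (adjusted p = 2.95e-12), with 9 of 14497 genes at a higher log2 difference. In OC.2+ fetal cells it was 5.55-fold (95% interval 4.57 to 6.73) higher than in adult hepatocytes (adjusted p = 2.11e-09), with 218 genes at a higher log2 difference. In OC.2+ against OC.2- fetal cells it was 8.81-fold (95% interval 7.26 to 10.7) lower (adjusted p = 8.03e-10), and 30 genes had a lower log2 difference. The adult level was below the 95% mark of the olfactory receptor genes here as well, so the folds against adult hepatocytes may be understated. Its group means spanned 5.61 log2 units, more than those of 99.62% of genes.

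Markers of several cell types moved with Gpc3 between the fractions. All 10 hepatocyte markers were lower in OC.2+ fetal cells than in the OC.2- fraction (median log2 difference -1.96). All 7 measured endothelial markers were lower too (median -1.88), with a summed intensity of 645.1 to 665.3 in OC.2+ and 3559 to 4784 in OC.2- fetal cells. Of 9 stellate and mesenchymal markers 8 were lower (median -0.57), with sums of 3463 to 4190 in OC.2+ and 4680 to 5471 in OC.2- fetal cells. Of 9 macrophage markers 3 were lower and none was higher, against 18.2% of all genes called lower. In OC.2- fetal cells against adult hepatocytes all 7 endothelial markers (median 1.80), 8 of 9 stellate and mesenchymal markers (median 0.94) and 7 of 9 macrophage markers (median 1.20) were higher, against 23.7% of all genes. All 9 erythroid markers were higher in that comparison too (median 2.498). The hepatocyte markers did not move with Gpc3 there, as 1 of the 10 was higher and 3 were lower (median -0.056). After median centring 5 of these 10 were lower, and after cyclic loess 8 were. Endothelial markers summed to 3559 to 4784 in OC.2- fetal cells, against 728.4 to 957.7 in adult hepatocytes, and stellate and mesenchymal markers to 4680 to 5471, against 1036 to 1155 in adult hepatocytes. The part of these lists in the differences of Gpc3, Igf2bp1 and Mdk was not tested. The table holds positive intensities only, so no marker was at zero.

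A within-array ratio was chosen after the values were seen and is given without a test. It sets each measured oncofetal gene against the mean log2 intensity of the 10 hepatocyte markers on the same array. For Gpc3 this ratio was -2.46 to -2.21 in OC.2+ fetal cells, -1.10 to -0.91 in OC.2- fetal cells and -7.08 to -6.64 in adult hepatocytes. The mean ratio of Gpc3 was lower in OC.2+ fetal cells than in the OC.2- fraction, by -1.31. The mean ratios of Igf2bp1 and Mdk, whose intensities were lower in OC.2+ fetal cells, were higher there, by 1.43 and 1.19. Those of Hmga1, Hmga2 and Plag1 were higher too, by 2.58, 1.80 and 1.88. The same marker mean is taken from every gene of an array. The ratio thus says only that Gpc3 fell by more than the mean of these markers and that the others did not. It does not say which of them changed.

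No other measured glypican was called higher in any comparison. Gpc4 was lower in both fetal fractions than in adult hepatocytes, with log2 differences of -1.62 in OC.2- and -2.48 in OC.2+ fetal cells, while Gpc1, Gpc2 and Gpc5, named after their values were seen, did not pass on the deposited values, with log2 differences between -0.10 and 0.16. Gpc2 passed as lower in OC.2- fetal cells than in adult hepatocytes after median centring (-0.23, adjusted p = 0.0482) and quantile normalization (-0.23, adjusted p = 0.0401). Of the 12 measured genes of the glypican and heparan sulphate list, 7 were lower and 2 higher in OC.2- fetal cells than in adult hepatocytes, and 8 were lower and 1 higher in OC.2+ fetal cells. Notum, a secreted hydrolase that removes palmitoleate from Wnt proteins, was at -2.40 in OC.2- and -2.27 in OC.2+ fetal cells, and Ndst1, which sulphates heparan chains, at -0.69 in OC.2- and -2.15 in OC.2+ fetal cells. Cd81, a tetraspanin, was at -1.21 in OC.2- and -2.79 in OC.2+ fetal cells. The chain-building enzyme gene Ext2 was higher in OC.2- fetal cells (0.68) and lower in OC.2+ fetal cells (-0.36) than in adult hepatocytes, the second of which did not pass after quantile normalization (-0.23, adjusted p = 0.0694). The 1 higher gene in OC.2+ fetal cells, the sulphatase gene Sulf1 (0.19), did not pass under any of the 3 other scalings (0.04 to 0.06, adjusted p = 0.586 to 0.702). Between the fractions 7 of the 12 were lower in OC.2+ fetal cells and none was higher.

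Mdk (probe set 10847432) was higher in OC.2- fetal cells than in both other groups, as were the endothelial and most stellate markers given above. Its log2 intensity was 6.39, 6.27 and 5.84 on the OC.2+ arrays, 6.95, 6.63 and 6.81 on the OC.2- arrays and 6.18, 5.88 and 5.85 on the adult arrays. The OC.2- arrays lay above all others, and the OC.2+ and adult arrays overlapped. Mdk was 1.77-fold (95% interval 1.43 to 2.20) higher in OC.2- fetal cells than in adult hepatocytes (adjusted p = 0.000363) and 1.55-fold (95% interval 1.25 to 1.92) lower in OC.2+ fetal cells than in the OC.2- fraction (adjusted p = 0.00277). In OC.2+ fetal cells against adult hepatocytes the log2 difference was 0.19 (95% interval -0.12 to 0.50, adjusted p = 0.269). Without OC.2+ replicate 3 that difference was 0.36 and passed (adjusted p = 0.0356), so this array decided the call.

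Ptn, the closest relative of midkine, was also highest in OC.2- fetal cells. Its mean log2 intensity was 5.58 in OC.2+ fetal cells, 6.92 in OC.2- fetal cells and 5.16 in adult hepatocytes. The OC.2+ and adult means of Ptn lay below the medians of the olfactory receptor genes on those arrays (5.71 to 5.84 and 5.47 to 5.64). Its OC.2- mean lay below the 95% mark of the olfactory receptor genes on the OC.2- arrays (7.26 to 7.36). The order of the 3 groups for Ptn thus lies within dim signal. Its log2 difference was 1.77 in OC.2- and 0.43 in OC.2+ fetal cells against adult hepatocytes. All 3 comparisons passed the test. The call in OC.2+ fetal cells against adult hepatocytes ended under each of 3 other scalings, with log2 differences of 0.28 to 0.29 (adjusted p = 0.0517 to 0.0727). Of the 14 measured genes of the list of Ptn and midkine receptors, 6 were higher and 4 lower in OC.2- fetal cells than in adult hepatocytes, and 8 were higher and 5 lower in OC.2+ fetal cells, or 5 and 5 after median centring or cyclic loess and 5 higher after quantile normalization. In OC.2+ against OC.2- fetal cells 3 were higher and 7 lower. The syndecans Sdc1, Sdc2 and Sdc4, heparan sulphate proteoglycans that bind midkine, were lower in both, with Sdc2 at -1.09 in OC.2- and -4.14 in OC.2+ fetal cells and Sdc4 at -1.12 in OC.2- and -2.90 in OC.2+ fetal cells. The endocytic receptor Lrp1 was at -1.53 in OC.2- and -2.88 in OC.2+ fetal cells. Nucleolin (Ncl) was at 0.81 in OC.2- and 1.63 in OC.2+ fetal cells, and the integrin subunit Itga4, which blood cells also carry, at 1.20 in OC.2- and 3.59 in OC.2+ fetal cells.

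Hmga1 (probe set 10828575) was the only one of the 6 genes called higher in OC.2+ than in OC.2- fetal cells. Its log2 intensity was 9.41, 9.48 and 9.23 on the OC.2+ arrays, 8.54, 8.62 and 8.68 on the OC.2- arrays and 8.25, 8.44 and 8.08 on the adult arrays. The groups did not overlap, although the highest adult array lay close below the lowest OC.2- array. Hmga1 was 1.69-fold (95% interval 1.45 to 1.97) higher in OC.2+ than in OC.2- fetal cells (adjusted p = 4.79e-05) and 2.17-fold (95% interval 1.86 to 2.53) higher than in adult hepatocytes (adjusted p = 6.97e-07). In OC.2- fetal cells it was 1.28-fold (95% interval 1.10 to 1.49) higher than in adult hepatocytes (adjusted p = 0.0124). The call in OC.2- fetal cells ended after median centring (log2 difference 0.23, adjusted p = 0.0858) and without adult replicate 3 (0.27, adjusted p = 0.0569). The rat annotation lists 3 pseudogenes and 1 protein-coding gene named after Hmga1, and their transcripts could share its probe signal.

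All 10 measured proliferation markers were higher in OC.2+ than in OC.2- fetal cells (median log2 difference 1.28), with summed intensities of 7534 to 8297 in OC.2+ fetal cells, 3078 to 3127 in OC.2- fetal cells and 931 to 1214 in adult hepatocytes. Pcna, the sliding clamp of DNA replication, was at 1.67 and Mcm7, a subunit of the replicative helicase, at 1.45. Of the granulocyte markers 10 of 11 were higher in the same comparison (median 4.22), as were all 9 erythroid markers (median 1.72). All 3 megakaryocyte markers (median 1.47) and 2 of 3 lymphocyte markers (median 2.14) were higher as well. Of 5 blood progenitor markers 4 were higher and 1 lower (median 0.78), against 20.3% of all genes called higher and 18.2% called lower. The part of these lists in the difference of Hmga1 was not tested.

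Of 7 other measured proteins of the HMG group, 2 were higher in OC.2+ than in OC.2- fetal cells and none was lower. These were Hmgn2, a nucleosome-binding protein, at 1.03 and Hmgb2, a DNA-bending protein, at 0.94. Both were also higher than in adult hepatocytes, Hmgn2 at 1.08 in OC.2- and 2.11 in OC.2+ fetal cells and Hmgb2 at 0.67 in OC.2- and 1.61 in OC.2+ fetal cells. Hmg20b was lower, at -0.32 in OC.2- and -0.36 in OC.2+ fetal cells, and passed in neither after quantile normalization (-0.14 with adjusted p = 0.20 and -0.20 with adjusted p = 0.0705). In all 3 were higher and 1 lower in OC.2- fetal cells, and 4 were higher and 1 lower in OC.2+ fetal cells, than in adult hepatocytes. After median centring 2 were higher in each, as Hmgb3 (0.11 with adjusted p = 0.363 in OC.2- and 0.24 with adjusted p = 0.0514 in OC.2+ fetal cells) and, in OC.2+ fetal cells, Hmgn1 (0.10, adjusted p = 0.331) lost their calls.

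Hmga2 (probe set 10940546) varied little. Its log2 intensity was 6.95, 7.07 and 6.95 on the OC.2+ arrays, 7.09, 6.95 and 7.00 on the OC.2- arrays and 6.71, 6.69 and 6.70 on the adult arrays. The fetal fractions overlapped, and all 6 fetal arrays lay above the 3 adult arrays. Hmga2 was 1.24-fold (95% interval 1.11 to 1.39) higher in OC.2- fetal cells (adjusted p = 0.00402) and 1.22-fold (95% interval 1.09 to 1.36) higher in OC.2+ fetal cells (adjusted p = 0.0056) than in adult hepatocytes. Between the fractions the log2 difference was -0.03 (95% interval -0.19 to 0.13, adjusted p = 0.836). After median centring neither comparison with adult hepatocytes passed (0.18 with adjusted p = 0.0707 in OC.2- and 0.15 with adjusted p = 0.126 in OC.2+ fetal cells), and after cyclic loess the one of OC.2+ fetal cells did not (0.14, adjusted p = 0.123).

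Plag1 (probe set 10875282) was higher in both fetal fractions than in adult hepatocytes. Its log2 intensity was 6.56, 6.61 and 6.58 on the OC.2+ arrays, 6.56, 6.61 and 6.43 on the OC.2- arrays and 6.23, 5.68 and 5.79 on the adult arrays. All fetal arrays lay above all adult arrays. Plag1 was 1.61-fold (95% interval 1.34 to 1.93) higher in OC.2+ fetal cells (adjusted p = 0.000324) and 1.55-fold (95% interval 1.29 to 1.86) higher in OC.2- fetal cells (adjusted p = 0.000886) than in adult hepatocytes. Between the fractions the log2 difference was 0.05 (95% interval -0.21 to 0.32, adjusted p = 0.793).

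The table has no detection call, and signal of genes not expected in liver cells gives a scale for dim values. Of the 53 olfactory receptor genes with a row, 95% lay below a log2 intensity of 7.10 to 7.74, depending on the array. Hmga1 was above that level on all 9 arrays, and Igf2bp1 and Gpc3 on the 6 fetal arrays only. Hmga2, Mdk and Plag1 were below it on every array, so their folds cannot show whether the genes were expressed, and the size of their differences may be understated.

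All 5 measured relatives and known targets of PLAG1 were higher in both fetal fractions than in adult hepatocytes, although Igf2, H19 and Dlk1 among them also belong to the imprinted growth genes. Plagl1, an imprinted zinc-finger relative, was at 2.60 in OC.2- and 0.85 in OC.2+ fetal cells. Plagl2, the closest relative, was at 0.57 in OC.2- and 1.47 in OC.2+ fetal cells. In OC.2+ against OC.2- fetal cells 4 of the 5 were lower and Plagl2 was higher, at 0.90. Dlk1, a membrane protein of fetal liver cells, was at -2.38 and Plagl1 at -1.76.

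Of 14 measured genes of the SALL family and the NuRD complex, 7 were higher and 2 lower in OC.2+ fetal cells than in the OC.2- fraction. Of all genes, 20.3% were called higher and 18.2% lower there. The NuRD subunits Mta2 and Gatad2a were at 1.07 and 0.90, and Rbbp7, a histone-binding subunit, was at -1.31. Sall1 was lower in OC.2+ fetal cells than in OC.2- fetal cells (-0.75) and than in adult hepatocytes (-1.08), and it did not pass in OC.2- fetal cells against adult hepatocytes (-0.34, adjusted p = 0.0707) except after another scaling (-0.46 to -0.38, adjusted p = 0.018 to 0.0351). Sall2 and Sall3 passed in no comparison. Rbbp7 was at 2.08 in OC.2- and 0.77 in OC.2+ fetal cells against adult hepatocytes, while the deacetylase gene Hdac1 was at 0.60 in OC.2- and 1.35 in OC.2+ fetal cells and Hdac2 at -0.59 in OC.2- and -0.47 in OC.2+ fetal cells. Against adult hepatocytes the list counts were 4 higher and 2 lower in OC.2- fetal cells, against 23.7% and 20.9% of all genes. The counts in OC.2- fetal cells turned to 2 and 4 after median centring and to 7 higher after quantile normalization. In OC.2+ fetal cells 8 were higher and 2 lower than in adult hepatocytes, against 32.0% and 23.4% of all genes.

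Other genes known as oncofetal were measured in 11 cases, of which 9 were higher and 1 lower in OC.2- fetal cells than in adult hepatocytes, and 9 were higher and 2 lower in OC.2+ fetal cells. In OC.2- fetal cells 2 were lower under each of the 3 other scalings. In OC.2+ against OC.2- fetal cells 2 were higher and 6 lower. Afp, the fetal plasma protein, was at -0.87 there and Mest, an imprinted hydrolase-like gene, at -3.34, whereas the glycolytic enzyme genes Pkm and Aldoa were at 1.37 and 0.68.

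**Figure D3:**
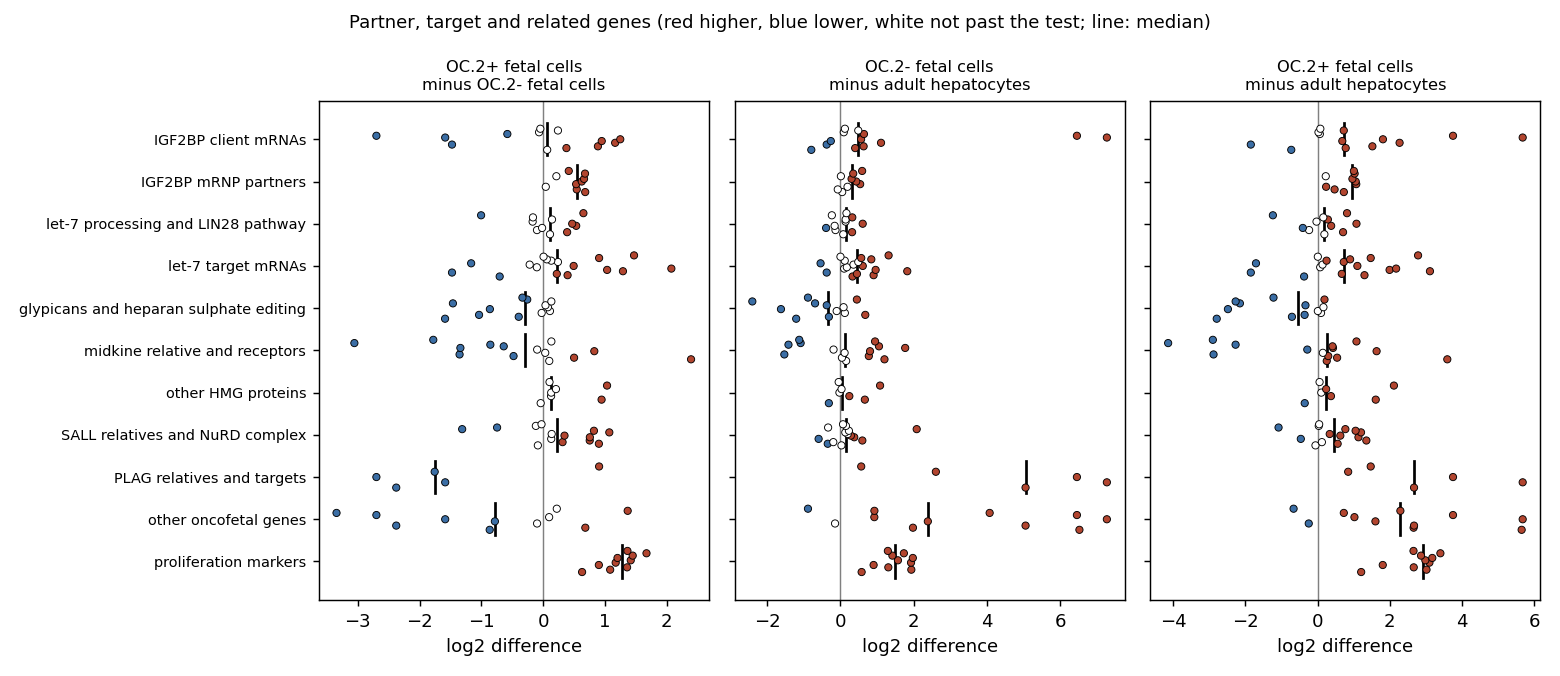
Log2 difference (horizontal axis) of every measured gene in 11 lists of partners, targets and relatives (rows) for the 3 comparisons; red points were higher and blue points lower at limma adjusted p under 0.05, white points did not pass, and the black line is the median of a list. Medians range from -1.76 for PLAG relatives and targets to 1.28 for proliferation markers in OC.2+ against OC.2- fetal cells.

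The genes with the most similar profiles were sought by the root mean square distance between log2 profiles over the 9 arrays, each centred on its own mean, for the 3 genes whose group means spanned at least 1 log2 unit. For Gpc3 these were Rbp2, a cellular retinol-binding protein (distance 0.286), Dlk1 (0.359) and Meg3, a maternally expressed non-coding RNA of the Dlk1 locus (0.391). Gpc3, Rbp2, Dlk1 and Meg3 had mean log2 intensities of 8.55, 7.98, 9.86 and 9.09 in OC.2+ fetal cells, of 11.69, 11.20, 12.24 and 11.71 in OC.2- fetal cells, and of 6.08, 5.97, 7.19 and 6.79 in adult hepatocytes. For Igf2bp1 they were Phgdh, the first enzyme of serine synthesis (0.0708), Ugcg, a glucosylceramide synthase (0.128), and Dpysl2, a regulator of microtubules (0.154). For Hmga1 they were Unc13d, which primes granules for release (0.0736), Tspo, a protein of the outer mitochondrial membrane (0.0748), and Tcf3, an E-protein transcription factor (0.0778). Among the 6 genes themselves Hmga2 and Plag1 were closest (0.227), and Gpc3 was at least 1.62 from each of the others. These distances describe 9 arrays in 3 groups, and many genes share such a pattern.

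**Figure D4:**
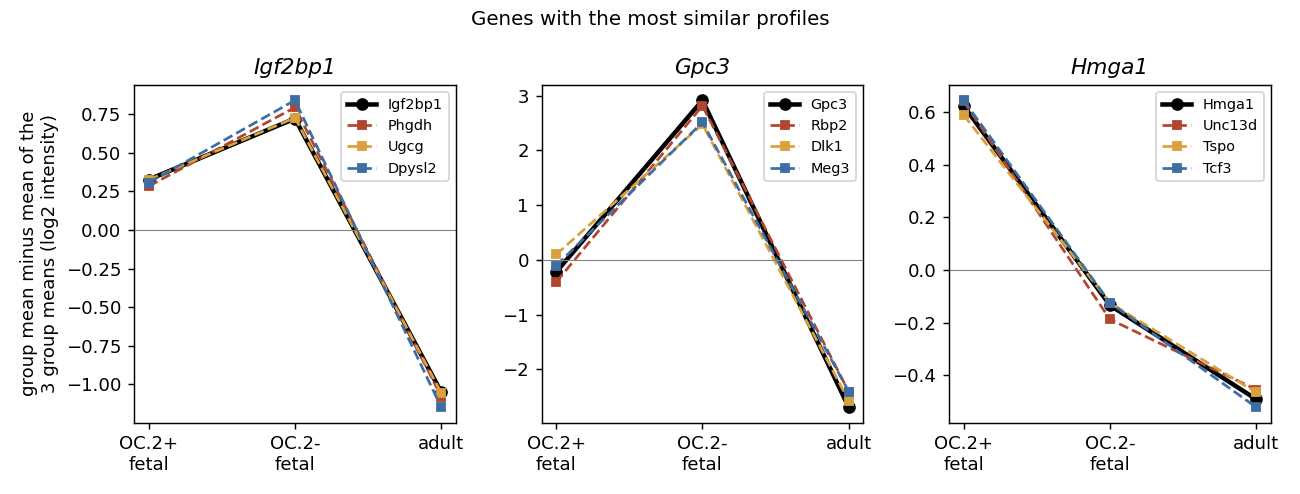
Group means of Igf2bp1, Gpc3 and Hmga1 (black) and of the 3 genes closest to each (dashed), on the log2 intensity scale after subtracting the mean of the 3 group means; lines only join the points of a gene. The Gpc3 panel peaks in OC.2- fetal cells, and the Hmga1 panel is highest in OC.2+ fetal cells.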

How the data were processed

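The authors deposited 1 table of intensities on a linear scale, with 28826 rows and 9 arrays. Per the submitters' processing notes, the tools were Partek 6.6 and RMA, with no order stated. RMA as usually run makes arrays alike and shrinks differences of dim genes. No genome build was found in the labels. Platform annotation gave 15209 rows 1 symbol, 306 several and 13311 none, and 15178 single symbols were found by gene identifier in RefSeq (GRCr8). The row with the highest mean represented each of 14497 genes, with no filter on dim genes.

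The log2 of each deposited intensity went into 1 linear model in limma 3.58.1 (R 4.3.3), with 3 group means over all 9 arrays (6 residual degrees of freedom, median standard error 0.0946), after a test of the script on simulated data. The tests were 2-sided, and p-values were adjusted over all genes with Benjamini and Hochberg's method and called under 0.05. The number of arrays limits the precision. The labels call the replicates biological without naming animals. The p-values thus weigh group differences against the spread between these preparations, which limma moderates over all genes. The members and gene lists were chosen with earlier results of these data known. The rule for named genes took every member and up to 3 called genes each way from each list and comparison, plus 8 relatives and fetal genes whatever their values. As it gave too many, those described were picked with their values known. Alternatives covered scaling, dim genes, probe sets, variance, array weights, samples in the fit, replicate block, threshold, an added constant of 16 and leaving out each array. List counts under the 3 scalings were added after seeing the data.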

Additional observations from a re-analysis of the deposited data

How the results depend on the processing

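The counts of called genes among the 6 stayed within 1.5 times under every alternative. For OC.2+ against OC.2- fetal cells it was 3 to 4, and for each fetal fraction against adult hepatocytes 4 to 6. Leaving out 1 array at a time gave 3 to 4 for OC.2+ against OC.2- fetal cells, and 5 to 6 for each fetal fraction against adult hepatocytes. Of the single-gene values under alternatives, 305 kept direction and side of the threshold, 11 lost a call, 1 gained a call (Mdk, given above) and 1, which was not called, turned its sign: Hmga2 in OC.2+ against OC.2- fetal cells was 0.011 without OC.2- replicate 1 (adjusted p = 0.953), in a range of -0.069 to 0.011 when single arrays were left out. The lost calls were those of Igf2bp1, Hmga1 and Hmga2 given above, and at adjusted p under 0.01 also Igf2bp1 in OC.2+ against OC.2- and Hmga1 in OC.2- against adult cells. The filter on the mean over all arrays left 4 of the 6 genes and dropped Mdk and Plag1. Median centring moved the median log2 difference of all genes by -0.13 in both comparisons with adult hepatocytes, and cyclic loess and quantile normalization moved that of OC.2+ fetal cells by -0.14 and -0.10. Gpc3 kept all 3 calls under every alternative, with log2 differences of -3.22 to -3.06 for OC.2+ against OC.2- fetal cells, 5.31 to 5.71 for OC.2- fetal cells and 2.22 to 2.57 for OC.2+ fetal cells against adult hepatocytes.

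The replicate numbers of the titles gave no sign of pairing. Deviations from group means of same-numbered arrays correlated at -0.23 to 0.11 over 9 pairs, against -0.16 to 0.29 over 18 pairs of other numbers. With 3 arrays per group this cannot exclude that same-numbered samples came from the same livers. With the replicate block 4, 6 and 5 of the 6 genes were called in the 3 comparisons, and 5416, 6199 and 7777 of all genes, against 5576, 6458 and 8034 without it. Under the 3 scalings, no listed gene was called in opposite directions.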

Other observations

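Deposited values were often identical on different arrays to every digit given. Between 833 and 1914 of the 28826 rows had the same value on a given pair of arrays, and 871 to 1914 on a pair of the same group. Hmga2 had the same value, 123.3 on the linear scale, on OC.2+ replicates 1 and 3, and Meg3 the same value on all 3 OC.2+ arrays, so that its SD there was 0. Spreads of single genes can therefore look smaller than those between separate measurements.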
